A study of Homo sapiens with 10 samples.

Results

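The cadherin switch and its transcriptional repressors were followed in 501Mel, an established human melanoma cell line. The set holds 7 genes: the zinc finger E-box repressors ZEB1 and ZEB2, the zinc finger repressors SNAI1 and SNAI2, the basic helix-loop-helix factor TWIST1, and the cadherins CDH1 and CDH2. In the abundance tables, which list 187626 Ensembl transcripts without gene names, 3 of the 7 genes could be followed, each through 1 transcript given for it in advance. These were ENST00000558170.6 for ZEB2, ENST00000269141.7 for CDH2 and ENST00000261769.9 for CDH1. ZEB1, SNAI1, SNAI2 and TWIST1, and the summed levels of all transcripts of a gene, were not analysed here. The members were chosen with results of these data in view: the ZEB2 locus was taken partly because it holds one of the best-scoring IRF4 peaks shared by both ChIP replicates. The score of that peak and its presence in both replicates are therefore given below as descriptions.

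The series measured polyadenylated RNA in cells given siRNA against IRF4 (labelled siIRF4, 3 libraries) or a control siRNA (siCTRL, 3 libraries), and mapped eGFP-tagged IRF4 by ChIP-seq in biological duplicate. All groups share the same cell line and carry no other treatment in the labels. IRF4 (interferon regulatory factor 4) binds DNA and controls transcription in lymphoid and pigment cells. The peak lists come from cells with tagged IRF4, and the RNA from cells given siRNA. Each of the 6 RNA libraries and each of the 2 ChIP replicates has a deposited table. The labels do not say whether the RNA libraries came from separate cultures, so the p-values measure only the spread between these libraries.

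As background, cadherins are calcium-dependent adhesion proteins that join neighbouring cells and are tied to the cytoskeleton through catenins. CDH1 (E-cadherin) joins normal melanocytes to keratinocytes in the epidermis, and melanoma cells often lose it and gain CDH2 (N-cadherin), a change named the cadherin switch. ZEB and SNAI proteins bind E-box sequences and repress genes of epithelial adhesion, CDH1 among them. In the pigment lineage the repressors are not interchangeable: ZEB2 and SNAI2 belong to the differentiated melanocyte, and ZEB1 and TWIST1 to dedifferentiated, invasive melanoma cells.

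Total estimated counts lay between 129989698 and 203758441 per RNA library. The libraries did not part by label in the transcriptome as a whole: on the first principal component of log2 CPM (counts scaled to a common library total, not corrected for length, with a prior count of 2), which carried 29.3% of the variance, siIRF4 replicates 2 and 3 lay at 240 and 102 beside siCTRL replicate 2 at 160, and siIRF4 replicate 1 at -131 beside siCTRL replicates 1 and 3 at -153 and -218. IRF4 itself, the target of the siRNA, was not analysed here, and no check of the labels on it was made. Melanocytic, keratinocyte, fibroblast and leukocyte markers were likewise not analysed here, and the labelled cell type was not checked on them.

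Promoter sequences of RefSeq (GRCh38.p14, 250 bases before to 50 after an annotated start) were matched for 3 of the 7 genes by symbol: ZEB1 with 7 starts, CDH2 with 2 and ZEB2 with 1. The ZEB2 promoter and the upstream CDH2 promoter are shown. IRF4 peaks were sought around the ZEB2 gene, and CDH2 was the cadherin detected in every library. The promoters shown lie at chr2:144520070-144520369 and chr18:28177081-28177380, both on the minus strand, and are written 5′ to 3′. Capitals mark any match, on either strand, to CACCTG (an E-box form bound by ZEB and SNAI factors), the core of the interferon-stimulated response element (GAAA, any 2 bases, GAAA) or the composite element of ETS and IRF factors (GGAA, any 2 bases, GAAA).
ZEB2: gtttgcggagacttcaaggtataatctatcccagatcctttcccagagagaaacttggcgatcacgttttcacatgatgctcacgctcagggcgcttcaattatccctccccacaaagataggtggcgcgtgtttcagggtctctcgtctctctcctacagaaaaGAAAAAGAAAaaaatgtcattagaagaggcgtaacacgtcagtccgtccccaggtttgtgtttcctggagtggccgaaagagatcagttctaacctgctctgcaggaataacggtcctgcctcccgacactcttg
CDH2: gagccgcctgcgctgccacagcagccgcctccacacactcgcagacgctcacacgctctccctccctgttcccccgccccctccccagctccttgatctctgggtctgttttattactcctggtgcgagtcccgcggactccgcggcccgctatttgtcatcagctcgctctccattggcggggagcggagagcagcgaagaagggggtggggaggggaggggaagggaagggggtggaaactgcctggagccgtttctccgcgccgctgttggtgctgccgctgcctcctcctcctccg

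The ZEB2 promoter held 1 match to the core of the interferon-stimulated response element, GAAAAAGAAA, which begins 85 bases before the annotated start and lies in a run of A and G. Of 35116 promoters of the same length in the table, 3.57% held a match to this motif. G and C made up 49.0% of the ZEB2 promoter, against a median of 58.7% over these promoters. The share was not adjusted for base composition. One of the 7 ZEB1 promoters also held a match and neither CDH2 promoter did, which makes 2 of the 10 promoters of these genes. CACCTG was found in 20.6% of all promoters, in 2 of the 7 ZEB1 promoters, and in neither the ZEB2 nor the CDH2 promoters. The composite element was found in 2.82% of all promoters and in none of the 10 promoters of these genes. The looser E-box CANNTG, which every CACCTG also matches, occurred in 68.7% of all promoters and in 6 of the 10. A match is a run of letters and was not tested for binding.

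The ZEB2 transcript was the most abundant of the 3 in every library. TPM (abundance corrected for transcript length and scaled to the same total in each library, so that levels of different transcripts can be compared) was 13.3, 12.2 and 16.5 in siIRF4 replicates 1, 2 and 3, from 4937, 4505 and 6555 estimated counts. It was 19.2, 13.1 and 24.4 in siCTRL replicates 1, 2 and 3, from 7726, 7020 and 8541 estimated counts. The groups overlapped: siCTRL replicate 2 lay below siIRF4 replicates 1 and 3. In each library the transcript stood above 91.3% to 94.9% of the transcripts detected there.

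The mean level of the ZEB2 transcript was 14.0 ± 2.23 TPM (SD, n = 3) in siIRF4 and 18.9 ± 5.65 TPM in siCTRL. With edgeR's quasi-likelihood test across all transcripts, the log2 fold change of siIRF4 over siCTRL was -0.44 (SE 0.239, 95% interval -1.02 to 0.13), with an adjusted p that rounds to 1 and an unadjusted p of 0.109. The 95% interval includes 0, and the difference of the means, -4.89 TPM, was smaller than the SD within siCTRL and larger than that within siIRF4. An exact two-sided permutation of the 6 libraries on mean TPM gave p = 0.3, where 0.1 is the smallest this design allows. Without siCTRL replicate 3, the highest library, the log2 fold change was -0.21. Without siCTRL replicate 2, the lowest control, it was -0.65 (interval -1.09 to -0.21, edgeR adjusted p = 0.936).

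The same fit covered all transcripts. Of the 83831 transcripts tested with edgeR, 0 (0%) passed an adjusted p of 0.05, and DESeq2 called 190 of 104201 (0.182%). With edgeR 1791 had an unadjusted p under 0.05, a share below the 0.05 expected if no transcript differed. The ZEB2 and CDH2 transcripts passed the filter on low counts and were tested, and neither was called by either tool. The CDH1 transcript did not pass the filter.

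CDH2 was detected in every library, at a high level in some and a low level in others. The transcript reached 0.441, 2.15 and 1.65 TPM in siIRF4 replicates 1, 2 and 3, from 177, 864 and 711 estimated counts. It reached 0.371, 1.89 and 0.430 TPM in siCTRL replicates 1, 2 and 3, from 162, 1100 and 164 estimated counts. The high libraries were siIRF4 replicates 2 and 3 and siCTRL replicate 2, and the low ones siIRF4 replicate 1 and siCTRL replicates 1 and 3, so both labels held high and low libraries and the groups overlapped. The highest library stood 5.79-fold above the lowest. The same 3 libraries that were high in CDH2 were those with positive positions on the first principal component. The part of that wider difference between libraries in the CDH2 level was not tested.

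The mean of the CDH2 transcript was 1.41 ± 0.879 TPM (SD, n = 3) in siIRF4 and 0.896 ± 0.858 TPM in siCTRL. The edgeR log2 fold change was 0.65 (SE 0.800, 95% interval -1.26 to 2.56), with an adjusted p that rounds to 1 and an unadjusted p of 0.445. The exact two-sided permutation on mean TPM gave p = 0.5. The SD of log2 CPM within groups was 1.25 in siIRF4 and 1.28 in siCTRL. Transcripts within 1.2-fold of its mean abundance, 3478 in number with CDH2 included, had median SDs of 0.338 and 0.352, and CDH2 exceeded 95.3% and 94.8% of them. For the ZEB2 transcript, with SDs of 0.211 and 0.468, the corresponding shares were 54.8% and 85.1% of 1620 transcripts. The difference of CDH2 between the labels thus depended on which libraries entered: it was 0.16 without siIRF4 replicate 2, 0.28 and 0.32 without siCTRL replicates 1 and 3, 1.06 without siIRF4 replicate 1 and 1.81 without siCTRL replicate 2 (edgeR adjusted p = 0.936).

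**Figure D1:**
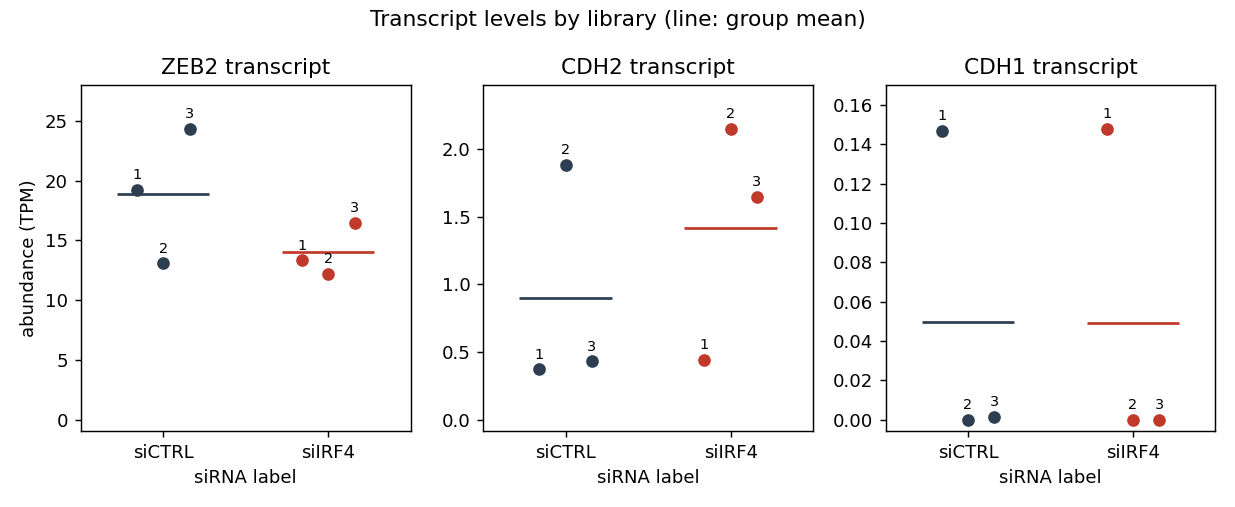
Level of each transcript in TPM (vertical axes, linear, 1 scale per transcript) in the 3 siCTRL and 3 siIRF4 libraries; each point is a library with its replicate number, and the line is the group mean. The ZEB2 groups overlap between 13.1 and 16.5 TPM, and CDH2 stands near 0.4 TPM in siIRF4 replicate 1 and siCTRL replicates 1 and 3 and above 1.6 TPM in the others.

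CDH1, the epithelial cadherin that ZEB and SNAI factors repress, was detected at a low level in 2 libraries and was at or under the limit of 3 counts in the others. Its transcript was listed at 0.148 TPM in siIRF4 replicate 1 and at 0.147 TPM in siCTRL replicate 1, from 67.6 and 72.8 estimated counts. It was listed at 0 in siIRF4 replicates 2 and 3 and in siCTRL replicate 2, and at 0.625 of an estimated count in siCTRL replicate 3. One library of each label therefore held the transcript, with nearly equal levels. For the libraries at 0, a count of 0 allows up to 3 counts, which is 0.00657 and 0.00612 TPM in siIRF4 replicates 2 and 3 and 0.00452 TPM in siCTRL replicate 2. These limits cover counting error only and do not cover the assignment of fragments between overlapping transcripts.

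The group means of the CDH1 transcript were 0.0493 TPM in siIRF4 and 0.0494 TPM in siCTRL, and the exact two-sided permutation gave p = 1. When no filter was applied, edgeR gave a log2 fold change of 0.04 with a 95% interval of -4.97 to 5.05, so the 6 libraries do not distinguish changes of many-fold in either direction.

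**Figure D2:**
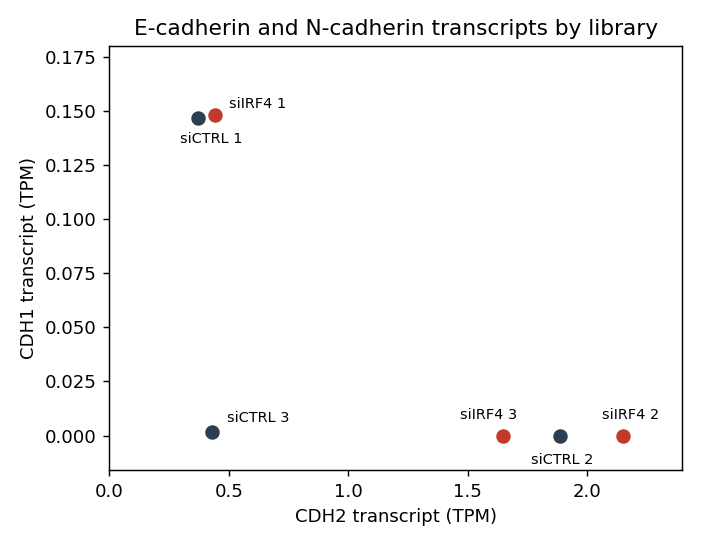
CDH1 transcript (vertical axis, TPM) against CDH2 transcript (horizontal axis, TPM), 1 point per library. The libraries with CDH1 at 0.147 and 0.148 TPM have CDH2 at 0.371 and 0.441 TPM, the 3 libraries with CDH2 above 1.6 TPM list CDH1 at 0, and siCTRL replicate 3 is low in both.

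Within each library the mesenchymal cadherin transcript exceeded the epithelial one. CDH2 was 2.98-fold above CDH1 in siIRF4 replicate 1 and 2.53-fold above it in siCTRL replicate 1, on the TPM scale. Elsewhere CDH1 was set at 3 counts. CDH2 was then 328-fold and 270-fold higher in siIRF4 replicates 2 and 3, and 417-fold and 62.1-fold higher in siCTRL replicates 2 and 3. For the libraries that list CDH1 at 0 these are lower bounds. They cover the counting error of CDH1 only, and not that of CDH2 or the assignment of fragments between overlapping transcripts. In siCTRL replicate 3, with 0.625 of an estimated count, 3 counts is a set value and not such a limit. Each label thus held a library with a ratio near 3 and libraries with ratios above 60. The high-CDH1 libraries were both low in CDH2, but siCTRL replicate 3 was low in CDH2 without CDH1, so the transcripts were not mirror images across the 6 libraries.

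The transcript of the repressor ZEB2 exceeded both cadherin transcripts in every library. On the TPM scale the ZEB2 transcript was 30.2-fold above CDH2 in siIRF4 replicate 1, and 5.66-fold and 10.0-fold above it in siIRF4 replicates 2 and 3. It was 51.8-fold, 6.93-fold and 56.6-fold above CDH2 in siCTRL replicates 1, 2 and 3. The ratio was lowest in the libraries high in CDH2, under both labels. ZEB2 itself varied less: its highest library stood 2.00-fold above its lowest.

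The transcripts whose profile over the 6 libraries was most like a member were sought where the mean reached 5 CPM. For CDH2, the nearest was ENST00000377113.5, with a Pearson's r of 0.998, and 659 of 18545 candidates had an r above 0.95. For ZEB2, the nearest, ENST00000517878.5, had an r of 0.995, and 77 of 18544 candidates had an r above 0.95. The points are 6 libraries that also share whole-library differences, so these values are descriptions, and the tables name no gene for these identifiers.

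The fits with libraries left out show how the values rest on single libraries. The libraries that stand nearest to the other label on the first principal component are siIRF4 replicate 1 and siCTRL replicate 2. With both left out, the CDH2 log2 fold change was 2.22 (95% interval 1.43 to 3.02, edgeR adjusted p = 0.118) and that of ZEB2 was -0.64 (-1.15 to -0.14, edgeR adjusted p = 0.293). In that fit 10811 of 85498 transcripts had an edgeR unadjusted p under 0.05, and 0 passed the adjusted threshold. The pair was chosen from earlier results of these libraries, and CDH2 differs along the same line. The fit is therefore not independent evidence of a change. The mean CDH1 level of siIRF4 less that of siCTRL was then -0.0741 TPM, as both remaining siIRF4 libraries list it at 0.

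**Figure D3:**
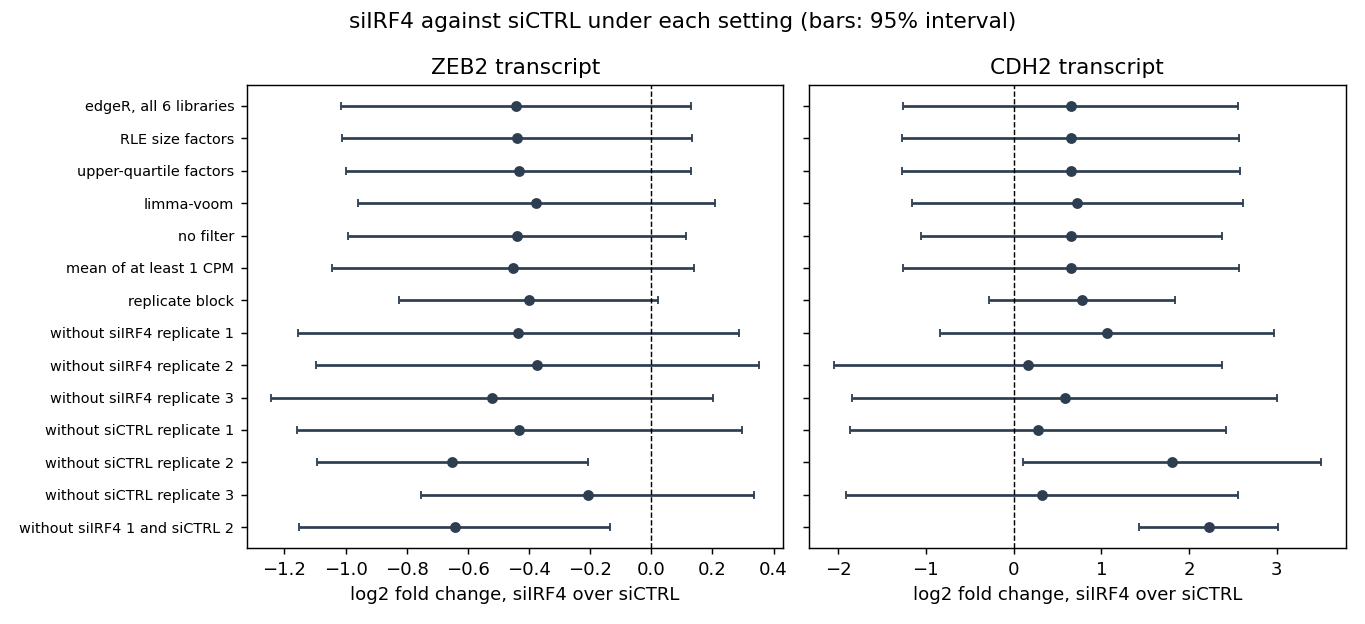
Log2 fold change of siIRF4 over siCTRL (horizontal axes) for the ZEB2 and CDH2 transcripts under the edgeR and limma-voom settings (rows); points are estimates and bars 95% intervals. ZEB2 stays between -0.65 and -0.21 and CDH2 between 0.16 and 2.22, and the bars exclude 0 only without siCTRL replicate 2, alone or with siIRF4 replicate 1.

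Around ZEB2, IRF4 peaks stood close together at the start side of the gene. The window searched was chr2:145091000-145328000, in the hg19 contig naming of the peak lists, which is ZEB2 with 50 kb on each side. Its upper end less 50 kb, 145278000, is the end of the gene to the nearest 1000 bases, and since ZEB2 lies on the minus strand this is the side of its start. The replicate 1 list held 4 peaks in the window and the replicate 2 list 6. Each of the 4 replicate 1 peaks shared 1 or more bases with a replicate 2 peak, against 62.1% of all 7568 replicate 1 peaks. From the other side, 4 of 6 replicate 2 peaks were shared, against 36.8% of 12831. With 4 and 6 peaks these shares are counts and were not tested. One of the shared peaks was known to be shared when the locus was chosen, so its overlap was fixed in advance.

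The best-scoring peak of the locus lay inside the gene, within about 5 kb of its start side. In replicate 1 it ran from 145272991 to 145275845, 2855 bases, with a score of 2491.24, rank 4 of 7568. In replicate 2 it ran from 145272866 to 145276274, 3409 bases, with a score of 2354.61, rank 22 of 12831. The replicate 2 peak contains the whole of the replicate 1 peak, and their centres lie 152 bases apart. The score is the authors' own value, undefined in the files, and serves here only to rank peaks within a list. This peak was known for its score and for its presence in both lists when the locus was chosen.

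A pair of smaller peaks, which ranked below the best-scoring peak in both lists, lay deeper in the gene. The nearer ran from 145270734 to 145271816 in replicate 1 (score 377.14, rank 1072) and from 145270195 to 145271877 in replicate 2 (score 2224.04, rank 33). The farther ran from 145267891 to 145268818 in replicate 1 (score 113.43, rank 6467) and from 145267640 to 145268665 in replicate 2 (score 1789.4, rank 74). In replicate 1 the farther peak outscored 14.5% of its list, and in replicate 2 99.4%. The nearer peak outscored 85.8% of the replicate 1 list and 99.7% of the replicate 2 list. The farther peak thus stood near the lowest score of the replicate 1 list (100.01) and near the top of the replicate 2 list. The lists differ in length and begin at different scores, and the reason for the difference in rank was not tested.

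The fourth shared peak lay outside the gene, beyond its start. It ran from 145280275 to 145282736 in replicate 1 (score 540.78, rank 517) and from 145280066 to 145282593 in replicate 2 (score 1351.76, rank 191). In both lists its nearer edge was about 2 kb from the rounded gene end, on the upstream side. It outscored 93.2% of the replicate 1 list and 98.5% of the replicate 2 list.

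A pair of peaks stood in the replicate 2 list alone. The one at the gene's start ran from 145277001 to 145278354, across the rounded gene end, with a score of 1075.29, rank 373. Replicate 1, whose list begins at a score of 100.01, listed no peak there. The other, from 145261568 to 145262220, had a score of 164.92, near the lowest score of the replicate 2 list (150.01). Whether the RefSeq promoter printed above falls within the peak at the start was not determined, since its coordinates belong to another build.

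**Figure D4:**
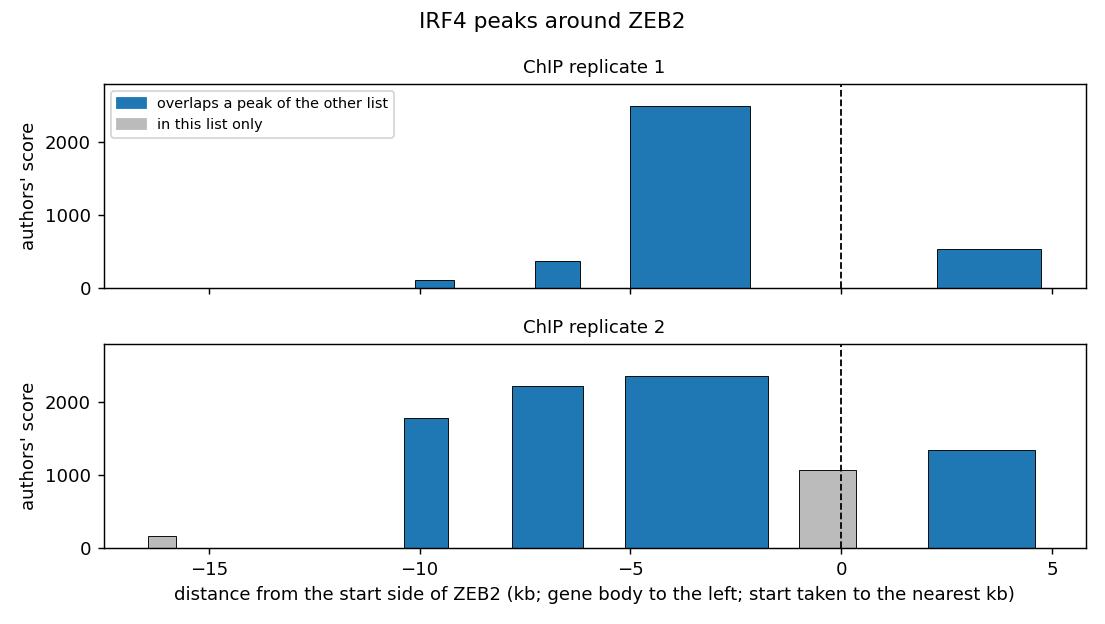
IRF4 peaks around ZEB2 in ChIP replicates 1 (top) and 2 (bottom); the horizontal axis is the distance in kb from the start side of the gene (dashed line, known to the nearest kb), with the gene body to the left, bar width is peak width and bar height the authors' score, on an axis for each list. The 4 blue peaks occur in both lists, with the highest score centred at -3.58 kb in replicate 1 and -3.43 kb in replicate 2, and the grey peak across the line occurs in replicate 2 only.

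The rest of the locus held no peak in either list. In replicate 2 the first peak of the window began 170568 bases from the lower end of the window, and in replicate 1 176891 bases, so most of the gene body and the flank beyond its end were without peaks. The peaks spanned 14846 bases in replicate 1 and 21026 in replicate 2 out of 237001 bases searched. Gaps between neighbouring peaks ran from 1174 to 4429 bases in replicate 1 and from 726 to 5419 in replicate 2. Together the peaks covered 7328 and 10653 bases.

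The grouping was set beside that of all listed peaks. Each of the 4 shared ZEB2 peaks of replicate 1 had 4 shared peaks, itself included, with centres within 15 kb. Of all 4697 shared replicate 1 peaks, 22 (0.468%) had at least as many, and 84.8% had none but themselves. Counting all replicate 1 peaks, shared or not, 102 of 7568 (1.35%) had at least 4. In the whole replicate 2 list the ZEB2 peaks had between 4 and 6, with 3 of the 6 ZEB2 peaks at 6, and 40 of all 12831 peaks (0.312%) had 6 or more. These shares describe the lists and carry no test, and peaks split by the caller count separately. They include the ZEB2 peaks themselves, are shares of peaks rather than of loci, and take the ZEB2 maximum as the cut. The 15 kb radius was not planned, and no other radius was used. It exceeds the 14846 bases that the replicate 1 ZEB2 peaks span, so each of those peaks counts all 4. The locus was also chosen for one of its peaks.

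The ChIP and RNA measurements of ZEB2 stand side by side without a test that joins them. The locus held 4 peaks found in both lists, and the ZEB2 transcript was not called different between siIRF4 and siCTRL with edgeR. IRF4 peaks around ZEB1, SNAI1, SNAI2, TWIST1, CDH1 and CDH2 were not analysed here, because their positions in the build of the peak lists were not used.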

How the data were processed

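RNA-seq covered 3 siIRF4 and 3 siCTRL libraries, and ChIP-seq 2 replicates. Values of the 2 inputs were not used here. The authors deposited estimated counts and TPM per transcript, in columns that kallisto writes per the file headers; the submitters' processing notes name kallisto, sleuth, Bowtie2, GRCh38 and hg19 without roles or versions. The deposited peak lists give a score per peak that neither labels nor files define. Contig names are those of hg19, and coordinates are counted from 1. Transcript lengths, the other columns, are in bases.

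Members and lists were chosen with earlier results of these data known. The planned sums per gene, the IRF4 check, gene lists and cell type markers needed a table pairing transcripts with genes and were not made; the plan then called for the same fit over transcripts. Named transcripts were those given for the members and the most alike ones. Estimated counts were rounded and tested with edgeR 4.0.16 in R 4.3.3 (quasi-likelihood, TMM, filterByExpr, two-sided, Benjamini-Hochberg over all transcripts tested, threshold 0.05), which kept 99.87% of the counts. SEs are the absolute log2 fold change over the square root of F. Alternatives used DESeq2 1.42.0 and limma 3.58.1. The fit was run on simulated counts whose spread between libraries was set below that estimated from these data. That run checked the sign and size of planted changes and does not measure the power to detect changes here. No library was another deposited again (chi-square per degree of freedom at least 34.7 for each pair).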

Additional observations from a re-analysis of the deposited data

How the results depend on the processing

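Under 16 alternatives the ZEB2 log2 fold change stayed negative (-0.65 to -0.21) and that of CDH2 positive (0.16 to 2.22), with 0 calls of either. Leaving out 1 library at a time gave these same limits for ZEB2, and 0.16 to 1.81 for CDH2; the CDH1 difference in mean TPM ran from -0.0494 to 0.0486. Limma on log2(TPM + 1) gave 0.36 for CDH2; adding 1 shrinks changes of low transcripts. The count of 0 called transcripts became 190 with DESeq2 and 8 with limma on log2(TPM + 0.1); the cause was not tested. The 6 fits without 1 library, and the other alternatives, gave 0.

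The replicate number as a block gave a log2 fold change of -0.40 for ZEB2 (SE 0.161, interval -0.83 to 0.02, edgeR unadjusted p = 0.059). For CDH2 it gave 0.78 (SE 0.402, interval -0.28 to 1.83, edgeR unadjusted p = 0.116). Without the block the SEs were larger, 0.239 for ZEB2 and 0.800 for CDH2, with edgeR unadjusted p of 0.109 and 0.445. Both intervals with the block still included 0, and there were 0 calls. No label ties same-numbered libraries together. Their deviations from the group mean had correlations of 0.197, 0.238 and 0.0384 for numbers 1, 2 and 3 over the transcripts tested. The fits without the block and the permutation did not pair the libraries, so they leave out any pairing that exists. With only means of 1 CPM or more the values were 0.336, 0.398 and 0.101, all over 0.1, so the answer depends on the transcripts used. Within each of the 3 numbers, ZEB2 was lower and CDH2 higher in the siIRF4 library on the TPM scale; the edgeR adjusted p with the block was 0.997 for both. Not every library correlated best with its own number. By chi-square per degree of freedom, where smaller is more alike, the libraries of number 1 were nearest to each other (39.1). The same held for number 2 (34.7) but not for number 3 (86.1).

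The 4 shared peaks around ZEB2 became 0 when centres had to lie within 100 bases, since the centres lie 152 to 239 bases apart; the other 5 settings gave 3 to 5. Read counts behind the peaks were not used, so the effect of ChIP depth was not tested. The fit on only the most abundant transcript of each gene was not run, as no gene sums were made.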
